A study of Homo sapiens with 12 samples.

Results

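The average resistant state of EGFR inhibitor-resistant head and neck squamous carcinoma cells was measured as the difference between the 8 libraries of resistant cells and the 4 libraries of parental cells, with the cell line as a block. Each gene then had 1 log2 fold change for resistance, averaged over both lines and both drugs. All 12 libraries of the series entered this comparison, and 16240 of 58051 Ensembl genes passed the filter on low counts and were tested. The groups were FaDu parental, AfaR and ErlR and Cal27 parental, AfaR and ErlR, with 2 libraries each. FaDu is an established line from a hypopharyngeal squamous cell carcinoma and Cal27 one from a squamous cell carcinoma of the tongue. AfaR cells are resistant to afatinib, an irreversible inhibitor of EGFR and its relatives of the ERBB family, and ErlR cells to erlotinib, a reversible inhibitor of EGFR. All groups were labelled as wild type and as tumor cells. By the study's methods, each resistant model was grown out under stepwise rising doses of its drug, and there was 1 such population for each line and drug. The 2 libraries of a model were therefore biological replicates of 1 selected population and not separate selections. With the line as a block, the spread behind the p-values also holds differences between the resistant models, but both libraries of a population count as independent. Where the spread is taken within groups, it is only that between libraries of 1 population. Selection and earlier drug exposure were both present in every resistant library and in no parental library, so their shares in a difference cannot be told apart. The methods state that resistant cells were kept under selection and taken off the drug shortly before experiments. Effects of recent drug removal therefore cannot be told apart from lasting ones. The lines also differed in culture medium, which cannot be told apart from the line.

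EGFR is a receptor tyrosine kinase that, when bound by ligands such as amphiregulin or epiregulin, pairs with itself or with ERBB2, ERBB3 or ERBB4 and activates the RAS, RAF, MEK and ERK cascade and the PI3K and AKT pathway. In squamous epithelium this signal drives proliferation and restrains differentiation. Cells that survive EGFR inhibition are known to do so in several ways, among them signaling through other receptors (MET, AXL, FGFR1), renewed ERK signaling below the receptor, loss of epithelial features with a gain of mesenchymal ones (epithelial-mesenchymal transition, EMT), and changed control of cell survival. The gene lists described here were drawn up around these routes.

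Libraries held between 16334937 and 23399259 reads assigned to genes. ERCC spike-ins took 3.86% to 5.82% of the reads and mitochondrial genes 0.969% to 2.32%. The FaDu parental and AfaR libraries held 20156109 to 23399259 reads, with 5.64% to 5.82% ERCC. The FaDu ErlR libraries held 16408108 and 16383694, with 3.95% and 4.60%, near the Cal27 libraries. In FaDu, the difference of ErlR from the other groups therefore cannot be told apart from depth and ERCC share. All 12 of the squamous epithelial markers examined, such as KRT5, TP63 and CDH1, were detected in every library. Their summed level was 1646 to 1784 CPM (counts of a gene scaled to its library's total, TMM-normalized) in Cal27 AfaR, against 5636 to 6785 in Cal27 parental, 6865 to 7673 in Cal27 ErlR and 7982 to 15059 in the 6 FaDu libraries. Markers of fibroblasts, endothelium and blood cells summed to 329 or 330 CPM in the Cal27 AfaR libraries and to at most 89.4 CPM in any other library, and their part in the results was not tested. Among them COL1A1, a collagen I chain that is also on the EMT list, reached 273 CPM in Cal27 AfaR, while the fibroblast markers COL3A1 and DCN were at most at 1.28 and 0.165 CPM in any library and the T cell marker CD3E was at 0 in 11 of the 12. Cal27 AfaR thus stood apart from the other 3 resistant models before any test, and the counts of list members on the mean of the 4 models are given with and without it. Counts for Cal27 alone and for AfaR against ErlR include it.

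Of 16240 genes tested, 10 were called different between resistant and parental cells (edgeR quasi-likelihood test, Benjamini-Hochberg adjusted p under 0.05 and an absolute log2 fold change above 1), which is 0.0616% of the genes. In resistant cells 8 of them were higher (0.0493%) and 2 lower (0.0123%). At the adjusted p alone 12 genes passed (0.0739%), of which 9 were higher (0.0554%) and 3 lower (0.0185%). The genes that rose were HMGN5, FLRT2, PDCD1LG2, DLC1, UST, PTGER4, NAV2 and ELOVL4 and, by less than the fold limit, SLC12A4. MMP7 and GALNT5 fell, as did KDM1A by less than the fold limit. For all 12 genes, in each line, the 4 resistant libraries lay on one side of both parental libraries, which 389 genes (2.4%) did upwards and 327 (2.01%) downwards of all those tested. None of the 12 had an adjusted p under 0.05 for a difference between AfaR and ErlR or, in the same kind of fit, between the lines. The fit that picked the 12 genes counts such differences as error. Their absence and the lack of overlap were therefore likely beforehand and are no separate result. With the spread taken within groups, MMP7 alone differed between the lines, where it fell by 2.58 on the log2 scale in FaDu and by 5.48 in Cal27 (difference SE 0.47, adjusted p 0.00174).

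HMGN5 encodes a nucleosome-binding protein that loosens chromatin (chrX:81113701-81201942, GRCh38 like all gene positions here). It was measured at 0.243 and 0.572 CPM in FaDu parental, 12.6 and 14.3 in FaDu AfaR, 7.54 and 6.28 in FaDu ErlR, 0.349 and 0.117 in Cal27 parental, 2.75 and 3.25 in Cal27 AfaR and 4.22 and 15.4 in Cal27 ErlR. The gene was close to undetected in the parental cells of both lines and clearly expressed in all 8 resistant libraries, with 1 Cal27 ErlR library well above the other. The log2 fold change was 4.68 (SE 0.63, adjusted p 0.0288), the largest of the 10. Over all alternatives it stayed between 4.27 and 4.96.

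FLRT2, a transmembrane adhesion protein with leucine-rich repeats (chr14:85530144-85654426), was at 1.46 and 4.11 CPM in FaDu parental, 7.62 and 8.47 in FaDu AfaR, 19.8 and 10.9 in FaDu ErlR, 2.45 and 3.44 in Cal27 parental, 20.7 and 17.4 in Cal27 AfaR and 19.9 and 15.9 in Cal27 ErlR. FaDu AfaR showed the smallest rise, and the other 3 models reached similar levels of 10.9 CPM or more. Its log2 fold change was 2.35 (SE 0.35, adjusted p 0.0375). PDCD1LG2 encodes PD-L2, a ligand of the T cell inhibitory receptor PD-1 (chr9:5510570-5571254). Its levels were 1.17 and 0.936 CPM in FaDu parental, 5.05 and 6.29 in FaDu AfaR, 4.09 and 6.54 in FaDu ErlR, 3.67 and 2.22 in Cal27 parental, 9.61 and 9.87 in Cal27 AfaR and 12.9 and 5.81 in Cal27 ErlR. Afatinib and erlotinib models thus overlapped in each line, and PDCD1LG2 rose by a log2 fold change of 2.01 (SE 0.29, adjusted p 0.0368).

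DLC1, a GTPase-activating protein that switches off RhoA at focal adhesions, had the smallest spread over the 4 models of all called genes that averaged 5 CPM or more, with log2 fold changes of 1.40 (AfaR) and 1.67 (ErlR) in FaDu and 1.75 (AfaR) and 1.85 (ErlR) in Cal27. It stood at 4.08 and 2.39 CPM in FaDu parental, 9.46 and 7.73 in FaDu AfaR, 7.86 and 12.9 in FaDu ErlR, 4.37 and 3.91 in Cal27 parental, 13.8 and 14.0 in Cal27 AfaR and 15.6 and 14.2 in Cal27 ErlR. Its average log2 fold change was 1.67 (SE 0.21, adjusted p 0.0288). The next in this order were ELOVL4, PTGER4, PDCD1LG2 and NAV2.

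PTGER4 encodes EP4, a receptor of prostaglandin E2 (chr5:40679498-40693735). It was at 2.52 and 2.55 CPM in FaDu parental, 5.82 and 7.36 in FaDu AfaR, 5.12 and 5.82 in FaDu ErlR, 4.89 and 5.60 in Cal27 parental, 18.3 and 17.5 in Cal27 AfaR and 13.6 and 12.0 in Cal27 ErlR, a log2 fold change of 1.40 (SE 0.19, adjusted p 0.0288). UST, an enzyme that sulfates chondroitin and dermatan sulfate chains (chr6:148747328-149076990), was at 6.65 and 5.30 CPM in FaDu parental, 10.9 and 10.7 in FaDu AfaR, 16.4 and 14.8 in FaDu ErlR, 4.31 and 4.55 in Cal27 parental, 15.0 and 13.1 in Cal27 AfaR and 16.7 and 15.6 in Cal27 ErlR. In FaDu the AfaR libraries lay between the parental and the ErlR libraries, and the gene rose by a log2 fold change of 1.44 (SE 0.20, adjusted p 0.0288).

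ELOVL4, which elongates very long chain fatty acids (chr6:79914812-79947580), was at 6.94 and 8.27 CPM in FaDu parental, 14.8 and 17.1 in FaDu AfaR, 16.8 and 14.0 in FaDu ErlR, 3.09 and 3.44 in Cal27 parental, 6.43 and 9.58 in Cal27 AfaR and 7.92 and 11.5 in Cal27 ErlR. It rose by a log2 fold change of 1.23 (SE 0.19, adjusted p 0.0449). NAV2, a cytoskeleton-associated protein of the neuron navigator family (chr11:19350724-20121598), was at 6.60 and 5.61 CPM in FaDu parental, 17.0 and 20.2 in FaDu AfaR, 18.4 and 15.0 in FaDu ErlR, 20.4 and 22.9 in Cal27 parental, 50.1 and 57.8 in Cal27 AfaR and 31.6 and 36.3 in Cal27 ErlR. The Cal27 ErlR libraries showed the smallest rise of NAV2, and the average log2 fold change was 1.26 (SE 0.19, adjusted p 0.0422). SLC12A4, a potassium and chloride cotransporter (chr16:67943474-67969601), went from 37.1 and 37.0 CPM in FaDu parental to 66.0 and 78.5 in AfaR and 67.7 and 66.3 in ErlR, and from 52.1 and 42.1 CPM in Cal27 parental to 74.4 and 68.7 in AfaR and 78.0 and 71.4 in ErlR. All 4 models had values between 0.60 and 0.96, and the average log2 fold change was 0.77 (SE 0.11, adjusted p 0.0288).

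MMP7, the matrix metalloproteinase matrilysin (chr11:102520508-102530753), was at 4.32 and 4.73 CPM in FaDu parental, 0.485 and 0.741 in FaDu AfaR, 1.02 and 0.785 in FaDu ErlR, 29.8 and 61.6 in Cal27 parental, 3.24 and 2.73 in Cal27 AfaR and 0.383 and 0.306 in Cal27 ErlR. Its highest resistant library lay below its lowest parental library even across the lines, and it fell by 3.84 on the log2 scale (SE 0.61, adjusted p 0.0463). GALNT5, which adds the first sugar of mucin-type O-glycans (chr2:157257598-157314211), was at 0.243 and 0.416 CPM in FaDu parental, 0.0485 and 0.0411 in FaDu AfaR, 0.128 and 0.131 in FaDu ErlR, 2.97 and 4.26 in Cal27 parental, 0.270 and 0.348 in Cal27 AfaR and 0.0639 and 0.122 in Cal27 ErlR. All 4 FaDu resistant libraries and both Cal27 ErlR libraries were below the level that 3 counts are worth (0.123 to 0.196 CPM), so its log2 fold change of -3.30 (SE 0.52, adjusted p 0.0463) rests mainly on the Cal27 libraries. KDM1A, the histone demethylase LSD1 (chr1:23019448-23083689), was at 153 and 167 CPM in FaDu parental, 106 and 108 in FaDu AfaR, 107 and 108 in FaDu ErlR, 178 and 192 in Cal27 parental, 129 and 139 in Cal27 AfaR and 126 and 118 in Cal27 ErlR. It fell by 0.55 on the log2 scale (SE 0.082, adjusted p 0.0375), and its 4 model effects lay between -0.60 and -0.46.

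**Figure D1:**
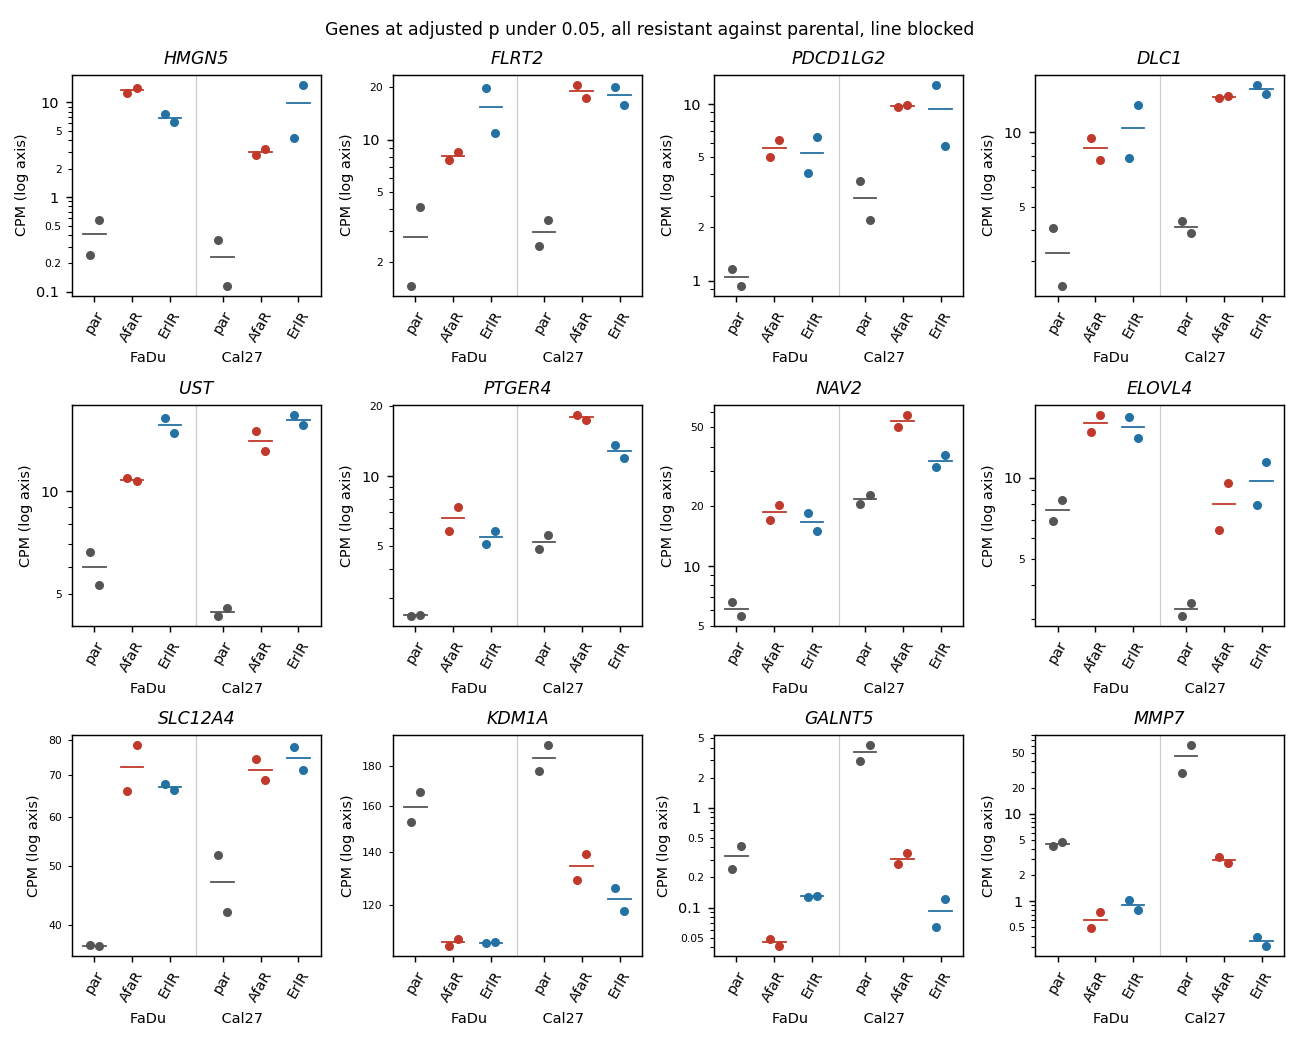
TMM-normalized CPM (log axis) of the 12 genes at adjusted p under 0.05, in each of the 12 libraries: parental (par, grey), AfaR (red) and ErlR (blue) of FaDu on the left and Cal27 on the right of each panel. Points are libraries and lines are group means (n = 2). In every panel the 4 resistant libraries of a line lie on the same side of its 2 parental libraries.

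The number of called genes rested on single libraries. It was 0 without any 1 of 9 of the 12 libraries (FaDu parental 1 or 2, FaDu AfaR 1, FaDu ErlR 1 or 2, Cal27 parental 1 or 2, Cal27 AfaR 2, Cal27 ErlR 1), 9 without Cal27 ErlR 2, 13 without Cal27 AfaR 1 and 15 without FaDu AfaR 2. The direction of all 12 genes was the same in every alternative run, which their non-overlapping groups in both lines made likely beforehand. The 2 genes just inside the limit were MMP7 (adjusted p 0.0463) and GALNT5 (0.0463), and the 2 just outside were STAC (log2 fold change 1.36, adjusted p 0.0512) and IFTAP (1.23, adjusted p 0.0665). At an unadjusted p under 0.05, 2202 genes (13.6%) passed, 1353 higher (8.33%) and 849 lower (5.23%). DESeq2 called 295 genes on the same design, 188 higher and 107 lower.

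The resistant state that the lines and drugs shared was a small part of the variation between libraries. Line accounted for 53.9% of the sum of squares of log2 CPM. Of the variation left after line, the difference between resistant and parental cells took 14.9%, its difference between the lines 13.0%, the difference between AfaR and ErlR 30.9% and its difference between the lines 17.7%. Libraries of the same group accounted for 23.4%, spread over 6 degrees of freedom, while each other term had 1. Among genes of at least 5 CPM the shares were 16.5%, 13.5%, 36.4%, 20.0% and 13.6% in the same order. The contrast of AfaR with ErlR had the largest share in both sets of genes. A change in 1 resistant model alone adds more to this contrast than to that of resistant with parental cells. The order of the shares therefore does not show that the drugs outweighed the shared state, and the shares without Cal27 AfaR were not measured.

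**Figure D2:**
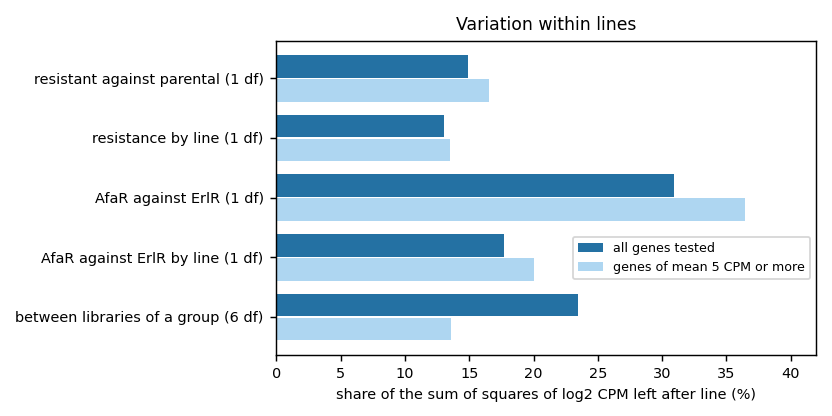
Share (%) of the sum of squares of log2 CPM left after the line, for 4 contrasts of 1 degree of freedom and for libraries of the same group (6 degrees of freedom), over all 16240 genes (dark) and the 10572 of at least 5 CPM (light). The contrast of AfaR with ErlR has the largest share, 30.9%, and resistant against parental has 14.9%. A change in 1 resistant model alone adds more to the former than to the latter.

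The gene-by-gene change in FaDu was only weakly related to that in Cal27, 2 comparisons that share no library. Across 16240 genes, which are not independent replicates, the mean effect of the FaDu models correlated with that of the Cal27 models at r = 0.0645 (Spearman 0.0795), and across the 10572 genes of at least 5 CPM at r = 0.103 (Spearman 0.111). The contrast of AfaR with ErlR was more alike in the lines, at r = 0.287 (Spearman 0.353) and r = 0.381 (Spearman 0.395). With the spread taken within groups, 415 genes rose on the mean of the FaDu models (2.56%) and 650 on that of the Cal27 models (4%), and 78 rose in both, 18.8% of the FaDu genes and 12.0% of the Cal27 genes. A further 48 of the genes that rose in FaDu fell in Cal27 (11.6%). Of 73 genes that fell in FaDu (0.45%) and 1083 that fell in Cal27 (6.67%), 22 were shared (30.1% and 2.03%), and 6 of the 73 rose in Cal27. Tested as 4 resistant against 2 parental libraries of 1 line, 0 genes passed in FaDu (2246 at an unadjusted p under 0.05, 13.8%, and 323 called by DESeq2) and 18 in Cal27 (0.111%), 3 higher (0.0185%) and 15 lower (0.0924%). The Cal27 count was 0 without some libraries and at most 18 without 1.

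**Figure D3:**
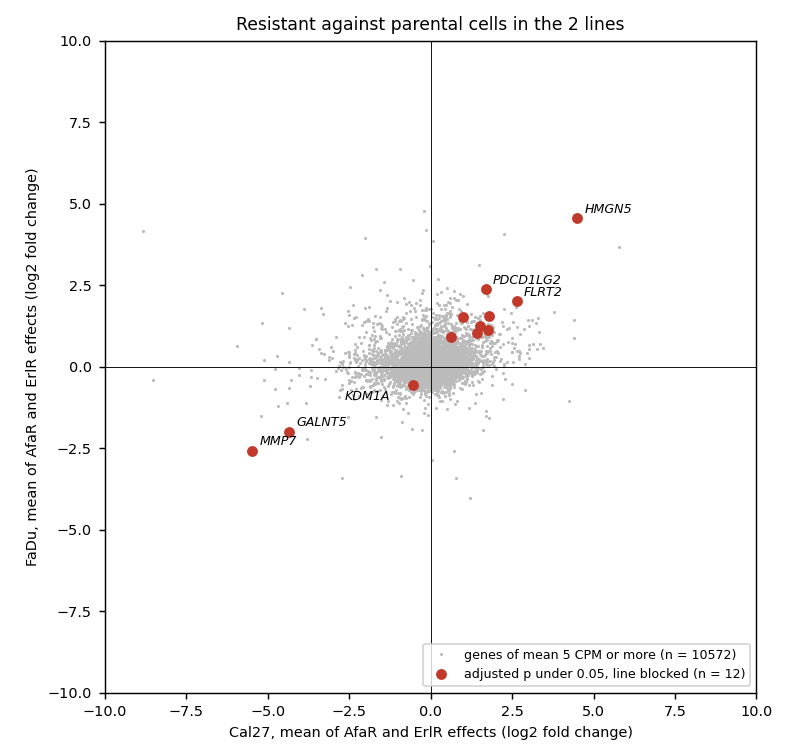
Mean log2 fold change of the AfaR and ErlR models against parental cells in FaDu (vertical axis) and Cal27 (horizontal axis). Grey points are the 10572 genes of at least 5 CPM and red points the 12 genes at adjusted p under 0.05 in the comparison with line as a block. The grey cloud shows little slope (r = 0.103), and the 12 red genes lie in the 2 quadrants where both lines moved the same way, which their selection made likely.

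A second way to average the resistant state was to fit the 6 groups separately, with the spread measured within groups, and to test the mean of the 4 model effects. This fit does not count disagreement between models as error, so a gene can pass through 1 model alone. It called 802 genes (4.94%), 465 higher (2.86%) and 337 lower (2.08%). The biological coefficient of variation was 15.0% in this fit, with 6 residual degrees of freedom, and 36.5% in the line-blocked fit, with 9. Of the 802 genes, 273 also differed between AfaR and ErlR at an adjusted p under 0.05, which 26.9% of all genes did. Between the lines, 19 of them differed in the line-blocked kind of fit and 292 with the spread taken within groups (16.3% of all genes), and 192 had all resistant libraries on one side of the parental libraries in both lines (121 higher, 0.745% of all genes, and 71 lower, 0.437%). Without the Cal27 AfaR libraries the mean of the other 3 models called 384 genes (2.36%), 205 higher (1.26%) and 179 lower (1.1%). Without FaDu AfaR it called 1068 (6.58%), 451 higher (2.78%) and 617 lower (3.8%), without FaDu ErlR 1127 (6.94%), 562 higher (3.46%) and 565 lower (3.48%), and without Cal27 ErlR 1163 (7.16%), 876 higher (5.39%) and 287 lower (1.77%). With library sizes scaled by the ERCC spike-ins, which moved the median log2 fold change of all genes from 0.0042 to 0.167, 943 genes were called, 697 higher and 246 lower. The genes described next were the largest of the 121 and the 71. Their groups did not overlap in either line, and the naming rule required that.

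Among the genes that rose on this mean, IFI27 and IFI6 belong to the interferon response and are described with it. KLF12, a transcriptional repressor, was at 2.52 and 3.69 CPM in FaDu parental, 5.00 and 4.53 in FaDu AfaR, 6.33 and 7.39 in FaDu ErlR, 0.816 and 1.17 in Cal27 parental, 24.7 and 25.7 in Cal27 AfaR and 15.8 and 18.7 in Cal27 ErlR. Both Cal27 models gained far more KLF12 than the FaDu models, and the line difference itself passed the line-blocked test (FaDu minus Cal27 -3.51 on the log2 scale, SE 0.45, adjusted p 0.0179). NTNG1, a membrane-anchored netrin, had log2 fold changes of 2.38 (AfaR) and 3.88 (ErlR) in FaDu and 0.93 (AfaR) and 2.05 (ErlR) in Cal27 (mean 2.31, SE 0.41, adjusted p 0.00189). GABRQ, a GABA-A receptor subunit, had 5.58, 1.81, 2.36 and 1.13 in the same order (mean 2.72, SE 0.36, adjusted p 0.000341). RORB, a nuclear receptor, was at 0 and 0.0583 CPM in Cal27 parental and 5.62 and 4.18 in Cal27 AfaR, but its adjusted p was 0.0644 without the Cal27 AfaR libraries.

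ABCC9, a regulatory subunit of ATP-sensitive potassium channels, had no count in any of the 4 parental libraries. Its levels were 0.0485 and 0.123 CPM in FaDu AfaR, below what 3 counts are worth, 1.41 and 0.981 in FaDu ErlR, 4.37 and 7.37 in Cal27 AfaR and 0.639 and 0.183 in Cal27 ErlR. Against 3 counts per parental library, ABCC9 was at least 7.92-fold higher in FaDu ErlR, at least 33.6-fold higher in Cal27 AfaR and at least 2.35-fold higher in Cal27 ErlR, on group means. DUXAP9 and DUXAP10 are near-identical pseudogenes between which reads may have been split, so each value is uncertain. In Cal27 their mean levels, at most 0.164 CPM, were below what 3 counts are worth in each group, so only FaDu bears on them, where DUXAP10 went from 1.65 and 1.92 CPM in parental cells to 3.59 and 4.24 in AfaR and 4.09 and 3.92 in ErlR. In FaDu the log2 fold change of DUXAP10 was 1.13 (AfaR) and 1.16 (ErlR).

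The largest falls on this mean follow. KRT13, a keratin of the upper layers of mucosal squamous epithelium, was at 104 and 164 CPM in FaDu parental, 1.504 and 20.6 in FaDu AfaR, 4.73 and 23.2 in FaDu ErlR, 2.27 and 2.74 in Cal27 parental, 0.216 and 0.232 in Cal27 AfaR and 0.767 and 0.489 in Cal27 ErlR. The replicates of the FaDu resistant models lay far apart but all below both parental libraries (mean log2 fold change -3.07, SE 0.67, adjusted p 0.00692). AGR2, a protein disulfide isomerase of secretory cells, fell, with a mean log2 fold change of -2.503 (SE 0.33, adjusted p 0.000327), with model effects of -1.39 to -3.32. MUC2, a gel-forming mucin, was at 5.30 and 6.36 CPM in Cal27 parental and at 0.489 or less in each Cal27 resistant library (mean log2 fold change -2.91, SE 0.34, adjusted p 0.000142). SERPINB13, a protease inhibitor of squamous epithelium, fell by a mean of 2.69 on the log2 scale (SE 0.30, adjusted p 9.99e-05). The 4 genes were lower in every resistant library than in either parental library of the same line.

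TERT, the catalytic subunit of telomerase, was at 0.534 and 0.936 CPM in FaDu parental, 0.194 and 0.0823 in FaDu AfaR, 0.0639 and 0 in FaDu ErlR, 6.93 and 4.14 in Cal27 parental, 0.378 and 0.174 in Cal27 AfaR and 1.15 and 1.59 in Cal27 ErlR. Its mean log2 fold change was -3.23 (SE 0.38, adjusted p 0.000167), and the line-blocked adjusted p was 0.0744. In FaDu the values of TERT rest on few counts. DUSP9, a phosphatase that acts on ERK, was at 4.85 and 6.13 CPM in FaDu parental, 3.30 and 3.29 in FaDu AfaR, 1.92 and 2.03 in FaDu ErlR, 16.5 and 18.9 in Cal27 parental, 0.216 and 0.348 in Cal27 AfaR and 2.43 and 2.32 in Cal27 ErlR. It fell by a mean of 2.76 on the log2 scale (SE 0.15, adjusted p 1.26e-06), most in Cal27 AfaR. GDA, which deaminates guanine, fell by a mean of 2.73 (SE 0.12, adjusted p 3.80e-07) and by more in Cal27 than in FaDu (line difference 3.84, SE 0.66, adjusted p 0.0455). OLR1, a receptor for oxidized low-density lipoprotein, and TMEM52B overlap on chromosome 12, so reads there may be shared, and they fell by means of 3.00 (SE 0.20) and 2.58 (SE 0.36). LINC00431, annotated as a transcribed pseudogene, fell by a mean of 2.97 (SE 0.44, adjusted p 0.000673).

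**Figure D4:**
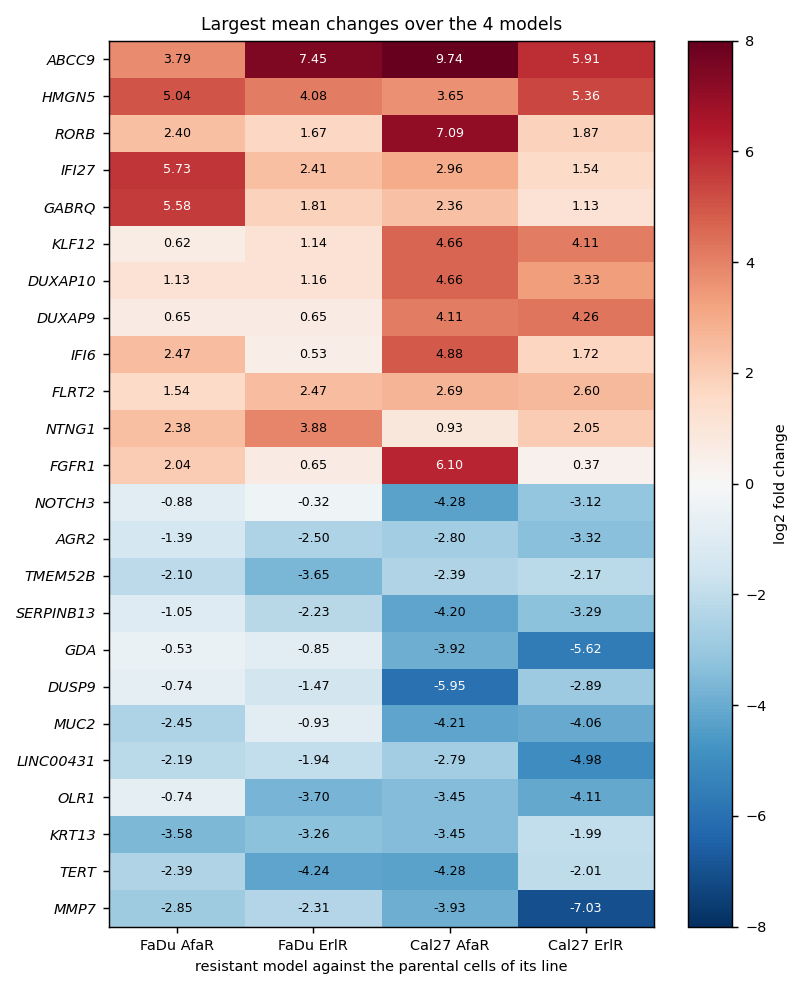
Log2 fold change of each resistant model against the parental cells of its line, for the 12 largest rises and 12 largest falls of the mean of the 4 models among called genes with non-overlapping groups in both lines. Colour and number give the log2 fold change. HMGN5 and FLRT2 rise by at least 1.54 in all 4 models, whereas KLF12 rises more in both Cal27 models than in FaDu. The means of FGFR1 and RORB drop to 1.01 and 1.97 without Cal27 AfaR. Values of ABCC9 (no parental count) and of DUXAP9 and DUXAP10 in Cal27 depend on the prior count and are no measure of size.

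Gene lists were described by the number of members that passed an adjusted p under 0.05 on the mean of the 4 models, a limit that 11.2% of all genes passed upwards and 9.99% downwards, and by the same count without the Cal27 AfaR libraries, where the shares were 5.63% and 4.34%. In the line-blocked comparison no list had a member at an adjusted p under 0.05 except the YAP and TEAD targets, with DLC1, although 14 interferon-stimulated and 9 EMT genes were higher and 8 squamous differentiation genes lower at an unadjusted p under 0.05. The median log2 fold change of all genes was 0.0042 on the mean of the 4 models.

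Interferon-stimulated genes are switched on by transcription factors that bind the interferon-stimulated response element (ISRE) in their promoters. Of 40 such genes tested, 20 rose and 0 fell, and the median log2 fold change was 0.69. The median was 1.07 (AfaR) and 0.43 (ErlR) in FaDu and 1.85 (AfaR) and -0.40 (ErlR) in Cal27, so the rise was mainly one of the afatinib models. Without the Cal27 AfaR libraries 3 rose, IFI27 and IFI6 among them, and without Cal27 ErlR 34, where 13.9% of all genes rose. Without FaDu parental 1 alone 8 rose and without Cal27 parental 1 alone 12. With the fold limit, 325 and 360 of all genes were called higher in these fits, against 465 with all libraries. Between AfaR and ErlR, 31 of the 40 were higher in AfaR and 0 in ErlR, where 14% and 12.9% of all genes differed. The 31 became 18 without Cal27 ErlR 1 alone and 21 with ERCC scaling.

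IFI27, a mitochondrial interferon-stimulated protein (chr14:94104836-94116698), was at 5.19 and 3.79 CPM in FaDu parental, 200.3 and 278 in FaDu AfaR, 28.4 and 19.7 in FaDu ErlR, 42.1 and 54.1 in Cal27 parental, 435 and 315 in Cal27 AfaR and 199.8 and 79.6 in Cal27 ErlR. It was above parental cells in all 8 resistant libraries, with a mean log2 fold change of 3.16 (SE 0.26, adjusted p 1.49e-05), and 3.22 without Cal27 AfaR. IFI6, which blocks apoptosis and virus replication (chr1:27666061-27672218), was at 8.88 and 9.72 CPM in FaDu parental, 42.1 and 60.7 in FaDu AfaR, 16.0 and 10.9 in FaDu ErlR, 11.6 and 16.5 in Cal27 parental, 479 and 349 in Cal27 AfaR and 72.4 and 20.1 in Cal27 ErlR. The rise was small in FaDu ErlR and largest in Cal27 AfaR (mean 2.40, SE 0.30, adjusted p 0.000208, and 1.57 without Cal27 AfaR). IFI44L was at 1.55 and 4.16 CPM in FaDu parental, 5.34 and 24.9 in FaDu AfaR, 6.78 and 4.05 in FaDu ErlR, 1.75 and 0.992 in Cal27 parental, 141 and 71.7 in Cal27 AfaR and 3.71 and 2.93 in Cal27 ErlR. Its groups overlapped in FaDu, and its adjusted p was 0.0570 without Cal27 AfaR.

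The promoters of these genes are shown because the ISRE core can be read in them. Each is the RefSeq sequence on GRCh38.p14 from 250 bases before to 50 after the annotated start, 5′ to 3′ on the gene's strand, with each match to the core GAAANNGAAA or its reverse complement in capitals: IFI27 at chr14:94110486-94110785 (plus strand, 2 matches), IFI6 at chr1:27672143-27672442 (minus strand, 3 matches) and IFI44L at chr1:78620198-78620497 (plus strand, 2 matches).
IFI27: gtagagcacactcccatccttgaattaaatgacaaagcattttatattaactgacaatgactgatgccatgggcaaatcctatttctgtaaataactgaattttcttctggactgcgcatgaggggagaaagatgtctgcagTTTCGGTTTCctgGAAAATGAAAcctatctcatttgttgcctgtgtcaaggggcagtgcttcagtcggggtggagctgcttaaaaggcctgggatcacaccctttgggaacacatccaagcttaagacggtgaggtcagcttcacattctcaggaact
IFI6: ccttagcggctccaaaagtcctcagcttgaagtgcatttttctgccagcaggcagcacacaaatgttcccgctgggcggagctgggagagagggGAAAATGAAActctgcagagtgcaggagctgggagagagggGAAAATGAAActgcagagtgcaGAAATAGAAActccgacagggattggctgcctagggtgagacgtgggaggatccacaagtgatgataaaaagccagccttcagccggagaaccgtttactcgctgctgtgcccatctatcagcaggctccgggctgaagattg
IFI44L: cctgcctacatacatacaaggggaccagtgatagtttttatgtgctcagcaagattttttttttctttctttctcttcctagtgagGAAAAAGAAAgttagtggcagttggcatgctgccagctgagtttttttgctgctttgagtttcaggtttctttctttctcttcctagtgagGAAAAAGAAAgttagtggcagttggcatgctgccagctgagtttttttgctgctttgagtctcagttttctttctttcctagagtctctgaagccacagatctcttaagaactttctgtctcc
Matches were counted without overlap. The core was found in the promoters of 20 of the 31 interferon-stimulated genes with a promoter sequence (64.5%) and in 10 of the 15 that rose (66.7%). It was in 335 of 11768 promoters of tested genes (2.85%), in 21 of 339 of the genes called higher on the mean of the 4 models (6.19%) and in 5 of 197 of those called lower (2.54%). The genes called higher include 15 interferon-stimulated genes that passed the fold limit, so their share is not separate from that of the list. None of the 9 promoters of the 12 line-blocked genes held it. A match is a stretch of letters and not a measured binding site.

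Of 25 antigen presentation genes 4 rose and 1 fell on the mean of the 4 models, and 20 were higher in AfaR than in ErlR against 0 the other way. Of all genes, 14% were higher in AfaR and 12.9% in ErlR. The 20 became 10 without Cal27 ErlR 1 alone and 11 with ERCC scaling. CIITA, the master regulator of MHC class II genes, rose by a mean log2 fold change of 1.17 (SE 0.33, adjusted p 0.0247), with model effects of 2.28 (AfaR) and 0.59 (ErlR) in FaDu and 2.49 (AfaR) and -0.70 (ErlR) in Cal27. HLA-B, an MHC class I heavy chain, had 1.82, 1.08, 1.502 and -1.11 in the same order (mean 0.82, SE 0.24, adjusted p 0.0263). PSMB10, an immunoproteasome subunit, fell by a mean of 0.55 on the log2 scale (SE 0.14, adjusted p 0.0163). Without Cal27 AfaR 0 members rose, and the count was also 0 without FaDu parental 1, FaDu parental 2 or Cal27 parental 1.

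Cytokines, chemokines and NF-kB targets fell more often than they rose, with 11 of 29 lower and 2 higher (1 higher and 4 lower without Cal27 AfaR). The median was 0.33 (AfaR) and 0.20 (ErlR) in FaDu and -0.94 (AfaR) and -1.07 (ErlR) in Cal27, below 0 in both Cal27 models and above it in both FaDu models. IL1RN, the interleukin 1 receptor antagonist, was at 11.1 and 9.72 CPM in FaDu parental, 1.70 and 3.41 in FaDu AfaR, 6.65 and 10.9 in FaDu ErlR, 7.11 and 8.93 in Cal27 parental, 0.216 and 0.406 in Cal27 AfaR and 1.09 and 0.917 in Cal27 ErlR (mean -2.48, SE 0.22, adjusted p 2.50e-05). TNFAIP2, an NF-kB target, fell by a mean of 1.55 on the log2 scale (SE 0.19, adjusted p 0.000176), and by 1.56 without Cal27 AfaR. IL6, the inflammatory cytokine, rose on the mean, with 28.0 and 47.4 CPM in Cal27 parental, 211 and 215 in Cal27 AfaR and 11.2 and 36.1 in Cal27 ErlR and 2.51 CPM or less in each FaDu library (mean 1.58, SE 0.46, adjusted p 0.0291). The lower count was 7 without FaDu parental 1 or without Cal27 parental 2.

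Loss of epithelial junction genes and gain of mesenchymal genes mark EMT. Of 31 junction genes 20 fell and 0 rose, and of 32 EMT transcription factors and mesenchymal genes 17 rose and 3 fell. Without Cal27 AfaR the counts were 6 lower and 1 higher of the junction genes, and 7 higher and 2 lower of the EMT genes. The median of the junction genes was 0.04 (AfaR) and 0.03 (ErlR) in FaDu and -1.64 (AfaR) and -0.36 (ErlR) in Cal27. The median of the EMT genes was 0.69, 0.38, 1.54 and -0.46 in the same order. The 2 lists therefore moved apart in 1 model, and in FaDu the junction genes stayed at the median of all genes. The lower summed squamous markers and the higher summed markers of other cell types of Cal27 AfaR moved with these counts, and their part in them was not tested.

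CLDN7, a tight junction claudin, was at 236 and 214 CPM in FaDu parental, 207 and 197 in FaDu AfaR, 220.1 and 280.3 in FaDu ErlR, 43.2 and 55.0 in Cal27 parental, 7.02 and 4.76 in Cal27 AfaR and 7.79 and 11.5 in Cal27 ErlR. It fell in both Cal27 models and the FaDu groups overlapped (mean -1.35, SE 0.12, adjusted p 2.17e-05). GRHL1, an epithelial transcription factor, fell by a mean of 1.51 on the log2 scale (SE 0.15, adjusted p 6.10e-05) and was below parental cells in all 8 resistant libraries. TJP3, a tight junction scaffold, fell by a mean of 1.84 (SE 0.43, adjusted p 0.00934), with its largest effect, -5.56, in Cal27 ErlR. TJP3 was at -0.61 (adjusted p 0.338) without Cal27 ErlR and at -0.985 (adjusted p 0.0658) without Cal27 parental 2 alone.

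MMP2, a matrix metalloproteinase, and MYLK, a myosin kinase, were above parental cells mainly in the afatinib models, with log2 fold changes of MMP2 of 2.89 (AfaR) and -0.022 (ErlR) in FaDu and 6.80 (AfaR) and -0.80 (ErlR) in Cal27. Both were higher in AfaR than in ErlR (MMP2 5.39, SE 0.90, adjusted p 0.00355; MYLK 3.90, SE 0.46, adjusted p 0.00108).

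The transcription factors of EMT, singled out after their values were seen, did not move as a block. SNAI2 had model effects of 0.28, 0.38, 0.99 and 1.76 (FaDu AfaR, FaDu ErlR, Cal27 AfaR, Cal27 ErlR) and TWIST1 of 1.26, 1.22, 4.00 and 0.45, and both were above parental cells in all 8 resistant libraries (adjusted p 0.000365 and 3.93e-05 on the mean). SNAI1 was below parental cells in all 8, with -1.16, -1.38, -2.63 and -1.62 (adjusted p 0.000465). VIM, the mesenchymal filament vimentin, was at 1123 and 1269 CPM in Cal27 AfaR and between 17.0 and 25.3 CPM in the other 10 libraries, so its mean of 1.5005 (SE 0.091, adjusted p 2.43e-06) was that of 1 model. CDH1 (E-cadherin) had 0.71, 0.23, -2.43 and -0.65, opposite signs in the lines, and in the line-blocked comparison CDH1 (-0.49, SE 0.42, adjusted p 0.642), CDH2 (0.81, SE 0.62, adjusted p 0.584) and VIM (1.78, SE 1.29, adjusted p 0.568) did not pass.

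Squamous differentiation and basal identity genes fell for the most part in Cal27 AfaR. Of 28 differentiation genes 13 fell and 1 rose, and of 23 basal genes 10 fell and 0 rose, but without Cal27 AfaR the counts were 2 lower and 0 higher, and 3 lower and 1 higher. The medians of the differentiation genes were -0.14, 0.00, -2.79 and -0.35 in FaDu AfaR, FaDu ErlR, Cal27 AfaR and Cal27 ErlR. KRT14, the keratin of basal keratinocytes, was at 115 and 319 CPM in FaDu parental, 29.1 and 137 in FaDu AfaR, 45.3 and 92.3 in FaDu ErlR, 272 and 112 in Cal27 parental, 0.918 and 1.63 in Cal27 AfaR and 30.7 and 12.2 in Cal27 ErlR. Its FaDu groups overlapped, but the mean was -3.36 (SE 0.43, adjusted p 0.000239) and -2.08 without Cal27 AfaR. KRT15, a keratin of basal progenitors, fell by a mean of 1.70 on the log2 scale (SE 0.28, adjusted p 0.00140). KRT6A, an injury-associated keratin, had -4.62 in Cal27 AfaR and 1.03 in Cal27 ErlR and overlapped in FaDu (mean adjusted p 0.0460, lost without Cal27 AfaR). RHCG, an ammonium transporter, and S100A7, an epidermal calcium-binding protein, are the largest falls of the list by fitted value, but S100A7 was at 0.104 CPM or less in all FaDu libraries, and both were at 0 in Cal27 AfaR. Of the 12 squamous epithelial markers 9 fell and 0 rose (1 and 1 without Cal27 AfaR), and EPCAM, an epithelial adhesion protein, was at 29.7 and 31.3 CPM in Cal27 AfaR and between 173 and 231 CPM in the other 10 libraries. None of the 11 markers of other cell types passed in either direction.

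**Figure D5:**
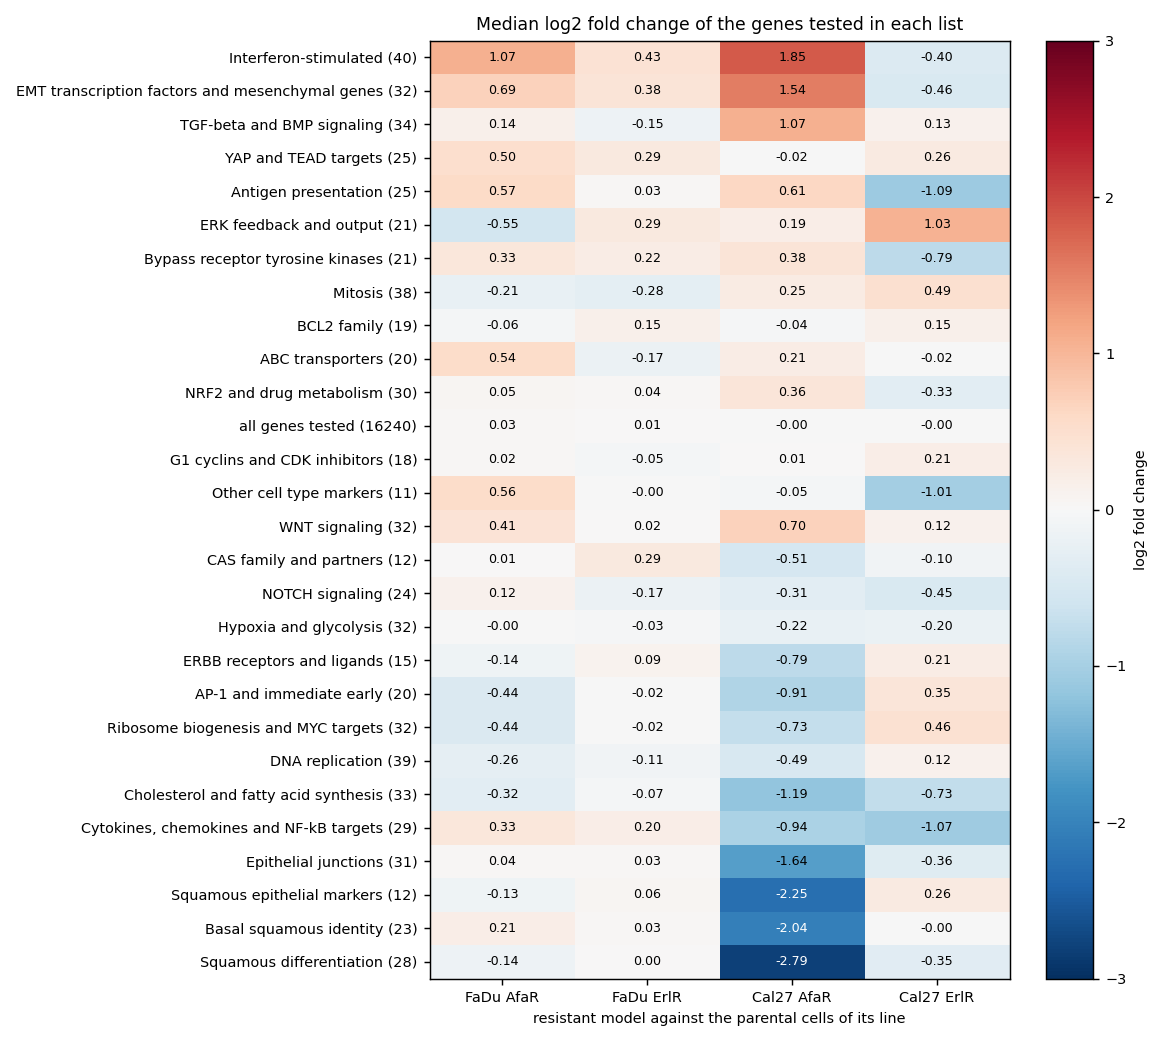
Median log2 fold change of the tested members of each gene list (number in brackets) in each resistant model against the parental cells of its line. Colour and number give the median, and the median of all 16240 genes lies between -0.0041 and 0.026. Interferon-stimulated and EMT genes are highest in Cal27 AfaR (1.85 and 1.54) and below 0 in Cal27 ErlR, and the squamous and junction lists are lowest in Cal27 AfaR.

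In the line-blocked comparison, which only 0.0739% of all genes passed at the adjusted p, no change of EGFR, ERBB2 or ERBB3 passed. EGFR was at 546 and 504 CPM in FaDu parental, 649.9 and 699 in FaDu AfaR, 569 and 610.1 in FaDu ErlR, 1325 and 1286 in Cal27 parental, 716 and 713 in Cal27 AfaR and 1647 and 1372 in Cal27 ErlR. Its line-blocked log2 fold change was 0.011 (SE 0.22, adjusted p 0.988), with a lower level in Cal27 AfaR (-0.87) and small positive values in the other models, and its sign changed with the alternatives. ERBB2 was at -0.15 (SE 0.096, adjusted p 0.516). Of 15 ERBB receptors, ligands and regulators, 2 rose and 1 fell on the mean of the 4 models. LRIG1, which promotes the degradation of ERBB receptors, was at 1.26 and 1.77 CPM in FaDu parental, 9.36 and 12.5 in FaDu AfaR, 3.197 and 2.88 in FaDu ErlR, 14.2 and 17.5 in Cal27 parental, 57.8 and 38.5 in Cal27 AfaR and 22.6 and 27.3 in Cal27 ErlR. It was higher in every resistant library (mean 1.53, SE 0.17, adjusted p 9.99e-05, and 1.49 without Cal27 AfaR), and more so in AfaR than in ErlR (1.41, SE 0.26, adjusted p 0.00527). NRG2, a neuregulin ligand, rose by a mean of 1.61 (SE 0.46, adjusted p 0.0243) and ERBB3 fell by 0.71 (SE 0.18, adjusted p 0.0149), and neither passed without Cal27 AfaR.

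Of 21 other receptor tyrosine kinases 5 rose and 2 fell, and 2 and 1 without Cal27 AfaR. FGFR1 was at 3.25 and 2.81 CPM in FaDu parental, 13.6 and 11.4 in FaDu AfaR, 4.80 and 4.71 in FaDu ErlR, 0.990 and 0.933 in Cal27 parental, 67.8 and 65.1 in Cal27 AfaR and 1.02 and 1.47 in Cal27 ErlR. It was above parental cells in all 8 resistant libraries, by a wide margin in the afatinib models and by a narrow one in the erlotinib models (mean 2.29, SE 0.14, adjusted p 2.58e-06, and 1.01 without Cal27 AfaR). The difference between AfaR and ErlR was 3.87 (SE 0.82, adjusted p 0.00846). FGFR3 fell by a mean of 1.29 on the log2 scale (SE 0.22, adjusted p 0.00139), with 0.24 in FaDu AfaR and -2.74 in Cal27 ErlR. EPHA4, an ephrin receptor, rose to 8.15 and 8.42 CPM in Cal27 AfaR and was at 1.47 CPM or less elsewhere. AXL, a receptor often linked to EGFR inhibitor resistance and named here after its values were seen, had 0.33, 0.55, 1.65 and 1.00 in FaDu AfaR, FaDu ErlR, Cal27 AfaR and Cal27 ErlR and was above parental cells in all 8 resistant libraries (mean 0.88, SE 0.12, adjusted p 0.000444).

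ERK output, a readout of the pathway below EGFR, differed between the afatinib and erlotinib models. Of 21 genes 6 rose and 3 fell on the mean of the 4 models (3 and 1 without Cal27 AfaR), while 12 were higher in ErlR than in AfaR and 0 the other way (8 without Cal27 AfaR 1 alone). Of all genes, 12.9% were higher in ErlR and 14% in AfaR. The median was -0.55 (AfaR) and 0.29 (ErlR) in FaDu and 0.19 (AfaR) and 1.03 (ErlR) in Cal27. SPRED3, an inhibitor of RAS and RAF signaling, was at 1.07 and 0.624 CPM in FaDu parental, 1.60 and 1.93 in FaDu AfaR, 2.30 and 3.86 in FaDu ErlR, 1.22 and 0.583 in Cal27 parental, 6.16 and 5.57 in Cal27 AfaR and 2.36 and 2.63 in Cal27 ErlR, above parental cells in every resistant library (mean 1.76, SE 0.27, adjusted p 0.000819). ETV1, a transcription factor stabilised by ERK, had -0.63 and -0.46 in the FaDu models and 2.64 and 2.34 in the Cal27 models (mean adjusted p 0.0389). Of 20 AP-1 and immediate early genes 4 rose and 4 fell (1 and 0 without Cal27 AfaR). EGR1, induced within minutes of ERK activation, was at 123 and 696 CPM in FaDu parental, 60.1 and 32.0 in FaDu AfaR, 318 and 189 in FaDu ErlR, 307 and 331 in Cal27 parental, 41.4 and 128 in Cal27 AfaR and 312 and 781 in Cal27 ErlR. Its parental FaDu libraries lay far apart, and EGR1, EGR3 and NR4A1 lost their adjusted p without Cal27 AfaR.

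Among the developmental pathways, 14 of 34 TGF-beta and BMP genes rose and 3 fell, and 3 and 3 without Cal27 AfaR. LTBP2, a latent TGF-beta binding protein, was at 13.5 and 16.8 CPM in FaDu parental, 23.3 and 37.1 in FaDu AfaR, 24.5 and 22.6 in FaDu ErlR, 10.1 and 19.5 in Cal27 parental, 86.3 and 53.4 in Cal27 AfaR and 43.3 and 62.1 in Cal27 ErlR. It was higher in all 8 resistant libraries (mean 1.43, SE 0.21, adjusted p 0.000557). TGFBR3, a TGF-beta co-receptor, and BAMBI, a decoy receptor, rose through Cal27 AfaR, with 6.76 and 5.26 there, and lost their adjusted p without it. Of 32 WNT genes 6 rose and 5 fell (4 and 4 without Cal27 AfaR). WNT5B, a ligand of the beta-catenin-independent branch, was at 0.680 and 0.572 CPM in FaDu parental, 2.77 and 6.71 in FaDu AfaR, 1.98 and 1.70 in FaDu ErlR, 1.51 and 1.28 in Cal27 parental, 6.86 and 11.9 in Cal27 AfaR and 2.30 and 3.36 in Cal27 ErlR (mean 2.05, SE 0.31, adjusted p 0.000673, and 1.81 without Cal27 AfaR). WNT10A, a ligand of the beta-catenin branch, fell by a mean of 1.84 on the log2 scale (SE 0.25, adjusted p 0.000368), and both ligands kept apart from parental cells in all 8 libraries. AXIN2, a beta-catenin target, was at 0.388 CPM or less outside Cal27 AfaR (2.65 and 1.04).

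Of 24 NOTCH pathway genes 6 fell and 1 rose, and 6 fell and 0 rose without Cal27 AfaR. NOTCH3, a NOTCH receptor, was at 64.9 and 69.8 CPM in FaDu parental, 20.3 and 52.7 in FaDu AfaR, 48.0 and 60.03 in FaDu ErlR, 96.1 and 159 in Cal27 parental, 9.61 and 3.37 in Cal27 AfaR and 13.5 and 15.6 in Cal27 ErlR. The fall was slight in FaDu and deep in Cal27 (mean -2.15, SE 0.25, adjusted p 0.000133, and -1.45 without Cal27 AfaR). JAG2, a NOTCH ligand, fell by a mean of 1.03 on the log2 scale (SE 0.12, adjusted p 0.000137), and NRARP, a NOTCH target, by 0.96 (SE 0.14, adjusted p 0.000653). Without Cal27 AfaR the means were -0.46 for JAG2 and -0.56 for NRARP. With HES4 the 3 genes made 4 of 24 members below parental cells in all 8 resistant libraries, against 2.01% of all genes.

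Of 25 YAP and TEAD targets 11 were higher and 2 lower on the mean of the 4 models, and 9 and 2 without Cal27 AfaR. The higher count was 7 without FaDu parental 1, FaDu parental 2 or Cal27 parental 1. Besides DLC1, RBMS3, an RNA-binding protein, had 3.23 (AfaR) and 1.35 (ErlR) in FaDu and 2.47 (AfaR) and 0.0040 (ErlR) in Cal27 (mean 1.76, SE 0.27, adjusted p 0.000913). IGFBP3, an insulin-like growth factor binding protein, fell by a mean of 1.48 on the log2 scale (SE 0.26, adjusted p 0.00198), from 2251 and 6719 CPM in Cal27 parental to 1018 and 1132 in Cal27 AfaR and 151 and 94.2 in Cal27 ErlR. Without Cal27 ErlR the mean of IGFBP3 was -0.255 (adjusted p 0.558), so its fall rested on that model.

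NEDD9 and its partners are adhesion scaffolds and kinases of interest in this study. Of 12 members tested 3 rose and 1 fell, and 3 rose and 0 fell without Cal27 AfaR. FYN, a SRC family kinase, was at 8.40 and 8.01 CPM in FaDu parental, 13.0 and 12.8 in FaDu AfaR, 18.9 and 16.5 in FaDu ErlR, 1.57 and 1.40 in Cal27 parental, 6.97 and 7.37 in Cal27 AfaR and 2.81 and 3.61 in Cal27 ErlR. It was higher in all 8 resistant libraries (mean 1.28, SE 0.14, adjusted p 7.45e-05, and 0.946 without Cal27 AfaR). BCAR1, the scaffold p130CAS, rose by a mean of 0.37 (SE 0.0998, adjusted p 0.0189) and BCAR3, which binds it, by 0.70 (SE 0.14, adjusted p 0.00487), the latter with -0.065 and 0.062 in FaDu and 0.82 and 1.97 in Cal27. Without Cal27 ErlR 1 member rose, where 13.9% of all genes did, and BCAR1 (0.23, adjusted p 0.108) and BCAR3 (0.26, adjusted p 0.229) did not pass. NEDD9 itself had 2.02 (AfaR) and 0.60 (ErlR) in FaDu and -0.72 (AfaR) and -2.30 (ErlR) in Cal27 and a line-blocked log2 fold change of -0.14 (SE 0.67, adjusted p 0.947).

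No average RNA change of AURKA or WEE1, the mitotic kinases that the study went on to inhibit, passed the line-blocked test, which only 0.0739% of all genes passed at the adjusted p. AURKA, the Aurora A kinase, was at 179.8 and 175 CPM in FaDu parental, 122 and 154 in FaDu AfaR, 124 and 129 in FaDu ErlR, 179.7 and 161 in Cal27 parental, 150.4 and 215 in Cal27 AfaR and 306 and 316 in Cal27 ErlR. Both FaDu models lay below and Cal27 ErlR above parental cells, and the line-blocked log2 fold change was 0.029 (SE 0.22, adjusted p 0.968). TPX2, which activates AURKA on the spindle, had 0.30 (SE 0.20, adjusted p 0.533), and WEE1, the kinase that holds CDK1 inactive, -0.096 (SE 0.14, adjusted p 0.801). Of 38 mitosis genes 3 rose and 2 fell on the mean of the 4 models, shares below those of all genes. CCNA2 (cyclin A2) rose by a mean of 0.41 (SE 0.099, adjusted p 0.0111), NDC80, a kinetochore protein, by 0.38 (SE 0.083, adjusted p 0.00673), and PKMYT1, a kinase related to WEE1, fell by 0.32 (SE 0.090, adjusted p 0.0246). With ERCC scaling, which raised the median of all genes from 0.0042 to 0.167, 16 mitosis genes rose and 0 fell.

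DNA replication genes were slightly lower, with 9 of 39 lower and 2 higher (4 and 0 without Cal27 AfaR). GINS1, a part of the replicative helicase, fell by a mean of 0.58 on the log2 scale (SE 0.086, adjusted p 0.000645) and MCM6, another, by 0.46 (SE 0.086, adjusted p 0.00280), both below parental cells in all 8 resistant libraries. CCNE2 (cyclin E2) rose by 0.47 (SE 0.12, adjusted p 0.0147). The lower count was 5 without Cal27 parental 1, 19 without Cal27 AfaR 2 and 2 with ERCC scaling. Of 18 G1 cyclins and CDK inhibitors 3 rose and 2 fell (2 and 0 without Cal27 AfaR). CDKN1A, the inhibitor p21, rose by a mean of 0.73 (SE 0.19, adjusted p 0.0159), with 1.74 in FaDu ErlR and -0.027 in Cal27 AfaR, and CDKN2C, the inhibitor p18, by 0.56 (SE 0.099, adjusted p 0.00193), but CDKN2C was at 0.028 (adjusted p 0.911) without Cal27 AfaR.

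Ribosome biogenesis genes showed a difference between AfaR and ErlR rather than a resistant one. Of 32 members 8 fell and 1 rose on the mean of the 4 models, 0 fell and 2 rose without Cal27 AfaR, and 30 were higher in ErlR than in AfaR (20 without Cal27 AfaR 1 alone). Of all genes, 12.9% were higher in ErlR. MYC was at 249 and 315 CPM in FaDu parental, 190.0 and 229 in FaDu AfaR, 299.9 and 249 in FaDu ErlR, 422 and 365 in Cal27 parental, 82.5 and 104 in Cal27 AfaR and 379 and 395 in Cal27 ErlR. It was lowest in Cal27 AfaR, below both parental libraries in FaDu AfaR and near its parental level in the ErlR models (mean -0.64, SE 0.095, adjusted p 0.000650). NOLC1, a nucleolar phosphoprotein, fell by a mean of 0.39 on the log2 scale (SE 0.075, adjusted p 0.00312) and MYBBP1A, a nucleolar MYB-binding protein, by 0.39 (SE 0.088, adjusted p 0.00756), and neither passed without Cal27 AfaR. With ERCC scaling 1 member was lower.

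The lists of lipid synthesis and of hypoxia and glycolysis leaned lower, mainly in Cal27. Of 33 cholesterol and fatty acid synthesis genes 11 fell and 1 rose (3 and 0 without Cal27 AfaR), with medians of -0.32 (AfaR) and -0.07 (ErlR) in FaDu and -1.19 (AfaR) and -0.73 (ErlR) in Cal27. SREBF1, the transcription factor of lipid synthesis, was at 241 and 232 CPM in FaDu parental, 159 and 268 in FaDu AfaR, 226 and 145 in FaDu ErlR, 290.4 and 342 in Cal27 parental, 113 and 56.9 in Cal27 AfaR and 63.1 and 119 in Cal27 ErlR (mean -1.05, SE 0.21, adjusted p 0.00370). SCD, the stearoyl-CoA desaturase, was at 1414 and 1831 CPM in Cal27 parental and 124 and 832 in Cal27 ErlR, and MVK, mevalonate kinase, at 51.4 and 46.6 and 10.8 and 43.0. The second Cal27 ErlR library was thus far above the first for both genes, and without it 27 of 33 members fell, while between 4 and 7 fell without any of FaDu parental 1 or 2, FaDu ErlR 2, Cal27 parental 1 or 2 or Cal27 AfaR 2.

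Of 32 hypoxia and glycolysis genes 9 fell and 2 rose (4 and 2 without Cal27 AfaR). CA9, carbonic anhydrase IX, was at 19.7 and 58.0 CPM in Cal27 parental, 4.43 and 2.03 in Cal27 AfaR and 3.90 and 3.54 in Cal27 ErlR and at 0.468 CPM or less in FaDu, and ALDOC, an aldolase, fell by a mean of 1.07 on the log2 scale (SE 0.24, adjusted p 0.00745). ANGPTL4, a secreted lipase inhibitor, rose by a mean of 2.92 (SE 0.63, adjusted p 0.00673), with -0.043 in FaDu AfaR and 5.45 in Cal27 ErlR. Of 30 NRF2 and drug metabolism genes 6 rose and 2 fell (1 and 4 without Cal27 AfaR). AHRR, the repressor of the aryl hydrocarbon receptor, was above parental cells by value in 3 models and not in Cal27 ErlR (-1.27), and AKR1C3, an aldo-keto reductase, rose by a mean of 0.79 (SE 0.18, adjusted p 0.00766), though its adjusted p was 0.115 without Cal27 AfaR. ALDH1A3, a retinaldehyde dehydrogenase, fell by a mean of 1.16 on the log2 scale (SE 0.16, adjusted p 0.000426), with 168 and 147 CPM in Cal27 parental, 36.3 and 51.8 in Cal27 AfaR and 37.1 and 30.3 in Cal27 ErlR.

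Drug efflux and survival genes showed few shared changes. Of 20 ABC transporters 3 rose and 1 fell (1 and 1 without Cal27 AfaR). ABCB1, the multidrug pump P-glycoprotein, was at 0.583 and 0.572 (parental), 5.43 and 6.01 (AfaR) and 1.02 and 1.24 CPM (ErlR) in FaDu, while both Cal27 parental libraries were at 0 and the Cal27 resistant libraries below what 3 counts are worth or at it. The adjusted p of ABCB1 on the mean of the 4 models was 0.0180, but it was 0.108 without FaDu AfaR and up to 0.9998 when 1 library was left out (without Cal27 ErlR 2). ABCG2, the breast cancer resistance protein, rose by a mean of 0.95 (SE 0.28, adjusted p 0.0307) and ABCC3 by 0.74 (SE 0.16, adjusted p 0.00539), and neither passed without Cal27 AfaR. Of 19 BCL2 family genes 1 rose and 2 fell (0 and 2 without it). BIK, a pro-apoptotic BH3-only protein, was at 22.8 and 25.7 CPM in FaDu parental, 20.8 and 19.7 in FaDu AfaR, 16.3 and 16.4 in FaDu ErlR, 11.2 and 12.3 in Cal27 parental, 3.62 and 4.24 in Cal27 AfaR and 3.00 and 2.14 in Cal27 ErlR. It was below parental cells in all 8 resistant libraries (mean -1.15, SE 0.11, adjusted p 3.42e-05, and -1.02 without Cal27 AfaR). BID, another pro-apoptotic member, fell by a mean of 0.37 on the log2 scale (SE 0.071, adjusted p 0.00352), and BCL2L1 (BCL-XL), which protects cells, rose by 0.40 (SE 0.13, adjusted p 0.0412), and both lost their adjusted p without Cal27 AfaR.

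Many single-gene results on the mean of the 4 models rested on 1 model. Among the genes named by the rule, and beyond the losses already given, EPHA4, ETV1, MMP2, CIITA, HLA-B, IL6, AXIN2, NDC80, PKMYT1, CCNE2, MYC, CA9, SCD, MVK, AHRR, RHCG, S100A7, EPCAM and DUXAP10 had an adjusted p of 0.05 or more without Cal27 AfaR. The same held for ETV1, S100A7, PSMB10, CCNA2, CCNE2, CA9, ALDOC, ABCG2 and BCL2L1 without Cal27 ErlR, for NRG2, EGR1, EGR3, CIITA, HLA-B, PKMYT1 and DUXAP10 without FaDu AfaR, and for DUXAP10 without FaDu ErlR. Of the genes that kept an adjusted p under 0.05 without Cal27 AfaR, the log2 fold change shrank by more than 1.5 times for DUSP9 (-1.71), GRHL1 (-0.68), CLDN7 (-0.79), MYLK (0.95), KRT15 (-0.97) and GINS1 (-0.38), and without Cal27 ErlR for GDA (-1.77) and FGFR3 (-0.82), as it did without FaDu AfaR for GABRQ (1.77) and without FaDu ErlR for CDKN1A (0.38). EPHA4 went from 2.60 to 4.49 without Cal27 parental 2 alone. Leaving out single libraries also lost the adjusted p of ABCG2, ALDOC, AXIN2, BCAR1, BCL2L1, CA9, CCNA2, CCNE2, CDKN1A, CIITA, DUXAP9, DUXAP10, EGR1, EGR3, ERBB3, ETV1, HLA-B, IL6, KRT6A, MVK, NRG2, PKMYT1, PSMB10, S100A7 and SCD in at least 1 of the 12 fits, while the sign of none of them changed.

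For some genes the average covered opposite or unequal changes in the lines. The lines differed in the resistant effect of 51 genes (0.314%), 41 with the higher value in FaDu (0.252%) and 10 in Cal27 (0.0616%). MAGED1, an adaptor of the MAGE family, was at 7.77 and 14.8 CPM in FaDu parental, 18.9 and 23.9 in FaDu AfaR, 20.0 and 18.0 in FaDu ErlR, 17.1 and 20.9 in Cal27 parental, 1.67 and 1.92 in Cal27 AfaR and 1.60 and 1.47 in Cal27 ErlR. All Cal27 resistant libraries were far below their parental cells and all FaDu resistant libraries above theirs (line difference 4.35, SE 0.38, adjusted p 0.00200). PYCARD, the inflammasome adaptor ASC, was at 1.31 and 3.27 CPM in FaDu parental, 13.5 and 20.8 in FaDu AfaR, 7.54 and 8.11 in FaDu ErlR, 13.2 and 18.6 in Cal27 parental, 6.59 and 6.85 in Cal27 AfaR and 3.96 and 4.89 in Cal27 ErlR, so it moved in opposite directions by value (difference 3.96, SE 0.69, adjusted p 0.0457). GALC, a lysosomal galactosidase, did likewise, with 2.23, 0.79, -2.59 and -1.98 in the 4 models (difference 3.94, SE 0.68, adjusted p 0.0455). SDR42E1, a dehydrogenase, was at 0.0971 and 0.260 (parental), 7.23 and 5.97 (AfaR) and 3.96 and 3.53 CPM (ErlR) in FaDu, and between 24.6 and 35.5 CPM in all 6 Cal27 libraries (difference 5.01, SE 0.53, adjusted p 0.00637). CCL20, a chemokine, went in Cal27 from 23.4 and 60.8 CPM to 2.43 or less and was at 0.327 CPM or less in all FaDu libraries, so its line difference (6.81, SE 1.18, adjusted p 0.0457) rests on few counts in FaDu. The number of genes with a line difference was between 1 and 61 when 1 library was left out.

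The afatinib and erlotinib models also differed from each other. With 1 selected population for each line and drug, the drug cannot be told apart from the population, and both libraries of a population count as independent. In FaDu the contrast also cannot be told apart from depth and ERCC share. Between AfaR and ErlR, with line and the parental cells in the fit, 1928 genes differed (11.9%), 1515 higher in AfaR (9.33%) and 413 higher in ErlR (2.54%). The genes higher in AfaR had a median level of 3.1975 CPM, those higher in ErlR 18.336 CPM and genes not called 19.202 CPM. Among genes with at least 10 counts in every library, 796 were higher in AfaR and 231 higher in ErlR. The part of expression level in these uneven counts was not tested. With ERCC scaling 1728 genes differed, 1069 higher in AfaR and 659 higher in ErlR. The count of 1928 became 1100 without Cal27 AfaR 1, 935 without Cal27 ErlR 1 and 1141 without Cal27 ErlR 2. Against parental cells, which both comparisons share, 1261 genes were called for AfaR (7.76%) and 84 for ErlR (0.517%). Disagreement between the lines counts as error there. With the spread taken within groups, 1005 genes were higher and 138 lower in FaDu AfaR and 251 and 92 in FaDu ErlR. In Cal27 the counts were 1816 and 1283 for AfaR and 599 and 1505 for ErlR. MMP2, NR3C2 (the mineralocorticoid receptor), BMP4, COL6A2 (a collagen VI chain), ALX4 and DIO2 (a deiodinase) had the largest excess in AfaR among genes apart in both lines. COL6A2 was at 6.26 and 5.82 CPM in FaDu parental, 26.2 and 34.9 in FaDu AfaR, 3.197 and 5.30 in FaDu ErlR, 14.8 and 21.5 in Cal27 parental, 163 and 149 in Cal27 AfaR and 2.36 and 1.96 in Cal27 ErlR. It was higher than parental in both afatinib models and lower in both erlotinib models by value (AfaR minus ErlR 4.36, SE 0.59, adjusted p 0.00192). KRT6B, IL1RL1, SLC38A5 (an amino acid transporter), S100A2, SPRY4 and AREG had the largest excess in ErlR. KRT6B lost its adjusted p in 6 of the 12 fits that leave out 1 library, with values up to 0.174 (without Cal27 AfaR 1). AREG, the EGFR ligand amphiregulin, was at 55.7 and 39.4 CPM in FaDu parental, 28.4 and 21.8 in FaDu AfaR, 40.5 and 84.4 in FaDu ErlR, 36.3 and 25.2 in Cal27 parental, 4.59 and 5.05 in Cal27 AfaR and 115 and 58.6 in Cal27 ErlR (AfaR minus ErlR -2.64, SE 0.53, adjusted p 0.00697), and SPRY4, a feedback inhibitor induced by ERK, differed by -2.79 (SE 0.42, adjusted p 0.00255). The averages of AREG and SPRY4 over all resistant libraries were 0.21 (adjusted p 0.928) and 0.99 (adjusted p 0.597), so neither passed as a shared change.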

How the data were processed

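RNA of 12 libraries (FaDu and Cal27, each parental, AfaR and ErlR, 2 biological replicates per group) was sequenced by the authors as poly(A)-selected paired-end libraries with ERCC spike-ins. The authors deposited raw counts per Ensembl gene, with Trimmomatic 0.36, STAR 2.5.2b, Subread 1.5.2 and GRCh38 named in their processing notes. The annotation release and the strand setting of the counting were not given in the sources used here, so overlapping and antisense genes may share reads. The authors' tables of normalized counts, each for 1 resistant model and its parental cells, were not used because they were scaled separately.

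The 92 ERCC rows were left out of library sizes and tests. Genes were kept by edgeR's filterByExpr on the 6 groups (16240 of 58051), scaled by TMM and tested with edgeR 4.0.16 (R 4.3.3) by the quasi-likelihood test with Benjamini-Hochberg adjustment, genes being called at an adjusted p under 0.05 with an absolute log2 fold change above 1. The design was line plus resistant or parental, over all 12 libraries. The 6 group means, the line interaction, line plus state (parental, AfaR, ErlR) and each line alone were also fitted. An SE is the log2 fold change divided by the root of F, and CPM values are TMM-normalized. With 16334937 to 23399259 counts per library, 3 counts were worth 0.123 to 0.196 CPM. Nothing in the labels says that the 2 libraries of a group came from separate selections, so no p-value measures the spread between repeated selections. With the 6 group means the spread is that between the libraries of a group. In the line-blocked design it also holds differences between the resistant models. The replicate numbers did not pair the libraries. The code was tested on simulated data.

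Named genes were the called genes with the largest changes and non-overlapping groups in both lines (12 each way), in each list the 3 members that changed most among those at an adjusted p under 0.05, the called genes of at least 5 CPM with the most even effects, genes with a line or drug difference, and the genes the study follows. One gene selected by this rule is not reported here. Since the line-blocked fit called 10 genes, names under the mean of the 4 models, the analyses without 1 model and the ISRE search were added after seeing the data. The members and gene lists were chosen with earlier results of these data known. Promoters came from RefSeq (GRCh38.p14, 11768 of 16238 symbols matched). Alternatives were DESeq2 1.42.0, upper-quartile and ERCC scaling, other filters, the replicate block, libraries summed per population, and leaving out each library or model.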

Additional observations from a re-analysis of the deposited data

Results flagged for a closer look

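In 13 of 260 groups of 4 resistant libraries of a line, for the genes named and the library measures, 1 library lay far from the other 3 by Dixon's criterion, and chance gives about 1 in 20. In FaDu, the AfaR 2 library was the highest for SLC12A4 (78.5 CPM, the others 66.0 to 67.7), RHCG (0.658, the others 0.0970 to 0.131), TNFAIP2 (355.7, the others 140.0 to 159.0), LTBP2 (37.1, the others 22.6 to 24.5) and the share of mitochondrial counts (1.40%, the others 1.04% to 1.09%). The FaDu ErlR 1 library was the lowest for NRG2 (0.639 CPM, the others 2.14 to 2.48) and the only one with a count of S100A7 (0.0639 CPM). In Cal27, the AfaR 1 library was the highest for DUXAP10 (0.270 CPM, the others 0.058 to 0.0639) and AfaR 2 for NDC80 (95.7, the others 74.3 to 77.3). The Cal27 ErlR 1 library was the highest for S100A7 (0.256 CPM, the others 0), RHCG (1.41, the others 0) and IL1RL1 (0.958, the others 0.054 to 0.122), and ErlR 2 for MVK (43.0, the others 10.2 to 10.8). The values of S100A7 and DUXAP10 rest on single or few reads.

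The resistant effect differed between the lines for 8 of the named genes (edgeR quasi-likelihood test of the interaction, adjusted over all genes). As log2 values of FaDu minus Cal27, the differences were 6.81 for CCL20 (adjusted p 0.0457), 5.01 for SDR42E1 (0.00637), 4.35 for MAGED1 (0.00200), 3.96 for PYCARD (0.0457), 3.94 for GALC (0.0455), 3.84 for GDA (0.0455), 2.67 for CLDN7 (0.0308) and -3.51 for KLF12 (0.0179). CCL20, PYCARD, GALC and MAGED1 had opposite signs in the lines, GDA was lower in both, KLF12 was higher in both, and SDR42E1 and CLDN7 had an effect near 0 in 1 line.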

How the results depend on the processing

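The direction of the 12 genes at an adjusted p under 0.05 was the same under every alternative, while the counts were not. Since the groups of these genes did not overlap in either line, a kept direction says little. The line-blocked comparison called 10 genes, 8 higher and 2 lower. DESeq2 called 295 (188 higher, 107 lower), ERCC scaling 47 (40 and 7), no filter 27 (13 and 14), the line and state design 174 (100 and 74), the mean of the 4 models 802 (465 and 337) and the unadjusted p with the fold limit 832 (558 and 274). A test against a fold change of 2, the 2 libraries of each population summed, and the replicate block called 0 genes in all, 0 higher and 0 lower. Upper-quartile factors left 0 lower, at least 10 counts in every library 1 lower, and leaving out the FaDu AfaR model 4 higher. Without the FaDu ErlR model 16 genes passed, 5 of them lower, without Cal27 AfaR 34 (21 and 13) and without Cal27 ErlR 579 (509 and 70). Leaving out 1 library gave 0 to 15 calls, 0 to 11 higher and 0 to 7 lower. In FaDu alone DESeq2 called 323 (292 and 31), ERCC scaling 381 (370 and 11), no filter 304 (266 and 38), and leaving out 1 library 0 to 6 (0 to 3 higher, 0 to 3 lower). In Cal27 alone DESeq2 called 581 (264 and 317), upper-quartile factors 2 (0 and 2), ERCC scaling 3 (0 and 3), no filter 1 higher, at least 10 counts 7 with 5 lower, the replicate block 0 (0 and 0) and leaving out 1 library 0 to 18 (0 to 3 higher, 0 to 15 lower). For the line difference DESeq2 called 403 (288 and 115), ERCC scaling 110 (108 and 2), no filter 5 lower, the block 17 (15 and 2), and leaving out 1 library 1 to 61 (1 to 49 higher, 0 to 12 lower). For AfaR minus ErlR ERCC scaling gave 659 lower, at least 10 counts 1027 (796 and 231), and leaving out 1 library 935 to 2235 (715 to 1693 higher, 188 to 542 lower). For the mean of the 4 models at least 10 counts called 338 (218 and 120), leaving out 1 library 610 to 792 (325 to 461 higher, 250 to 378 lower), and leaving out a model 617 lower (FaDu AfaR), 565 lower (FaDu ErlR), 384 (205 and 179, Cal27 AfaR) and 876 higher (Cal27 ErlR). The causes were not tested. Replicate numbers did not pair the libraries (correlations of -0.133 to 0.137 over 15 pairs of groups, 2 over 0.1). Genes not called changed sign in places: EGFR to -0.00190 (no filter), -0.00233 (10 counts), -0.00201 (sums), -0.0081 (line and state), -0.033 (mean of the 4 models), -0.063 (without FaDu AfaR) and -0.24 (without Cal27 ErlR), PYCARD to 0.049 (ERCC), 0.015 (block), 0.40 (mean of the 4 models), 0.42 (without Cal27 AfaR) and 0.69 (without Cal27 ErlR), AURKA to -0.21 without Cal27 ErlR, CDH2 to -0.22 without Cal27 AfaR, ERBB2 to 0.012 and WEE1 to 0.075 with ERCC scaling, NEDD9 to 0.46 without Cal27 ErlR and GALC to 0.15 without Cal27 AfaR. Leaving out 1 library gave -0.113 to 0.0958 for EGFR, -0.637 to 0.517 for NEDD9, -0.131 to 0.133 for AURKA and -0.700 to 0.521 for PYCARD. ERCC scaling moved the line-blocked median of all genes from 0.0396 to 0.205.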

Other observations

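Besides the interferon element, 4 promoter motifs were searched on both strands: the E-box CACGTG, the CCAAT box (CCAAT), the TEAD site GGAATG and the AP-1 site TGACTCA. The E-box was in 9.94% of the 11768 promoters of tested genes, in 4.42% of those of the 339 genes called higher on the mean of the 4 models and in 6.09% of those of the 197 called lower. The CCAAT box was in 36.4%, 31.0% and 25.4% of them, the TEAD site in 11.1%, 10.0% and 9.14%, and the AP-1 site in 3.31%, 4.13% and 6.60%. These shares were not tested, and the ISRE core was added to the search after the interferon-stimulated genes had been seen.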
